A study of Mus musculus with 6 samples.

Results

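Bile acid synthesis was followed through 10 genes in liver RNA of mice that had lost LKB1 and of wild-type (WT) mice. The genes were taken by symbol from the deposited table: Cyp7a1, Cyp8b1, Hsd3b7 and Akr1d1 of the classic pathway, Cyp27a1 and Cyp7b1 of the alternative pathway, Slc27a5 and Baat for conjugation, and Nr1h4 and Nr0b2 for feedback. All 10 were found among the 55450 genes of the table, and all 10 passed the filter on low counts that left 14539 genes for testing. LKB1, encoded by Stk11, is a kinase that activates AMPK and related kinases. The knockout (KO) group was 3 mice with LKB1 fl/fl alleles, in which Cre recombinase cuts out the DNA between loxP sites, and the control group was 3 WT mice. Every mouse, controls included, received AAV8 Cre, a virus of a serotype that infects hepatocytes, at 6 weeks of age, and the livers, of which the left lobe was used, are labelled as from mice of 10 weeks. The strain is given as C57BL/J in both groups. The labels do not give the promoter that drives Cre, the sex of the mice or the hour at which the livers were taken.

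Hepatocytes turn cholesterol into bile acids along a pair of routes. The classic route starts in the endoplasmic reticulum with CYP7A1, its rate-limiting enzyme, and the alternative route starts in mitochondria with CYP27A1. Bile acids return to the liver and bind FXR, the nuclear receptor encoded by Nr1h4, which induces SHP, the product of Nr0b2, and SHP in turn represses Cyp7a1 and Cyp8b1.

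Stk11 was at 22.2, 14.4 and 11.4 CPM (counts scaled to the size of each library) in KO 1 to 3 and at 64.2 to 69.7 CPM in WT, so each KO library lay below each WT library. Total counts ran from 47659122 to 56147667 per library. The libraries also differed in a way the labels do not describe: KO 1 and WT 1 had 42472 and 29243 Xist counts with at most 6 counts of 4 Y-linked genes, whereas the other 4 libraries had 6146 to 8199 Y-linked counts and at most 16 of Xist. Below, KO 1 and WT 1 are called the Xist pair and the other 4 the Y libraries. The 8 hepatocyte markers summed to 26660 to 77600 CPM in KO and 91550 to 134200 CPM in WT, of which Alb alone was 10390 to 50550 CPM in KO and 57060 to 95630 CPM in WT. They did not move as one: 5 had a negative and 3 a positive log2 fold change. In 4 of the 8 every KO library lay below every WT library, and in 2 every KO library lay above. By edgeR 0 were called as lower and 1 as higher, by DESeq2 3 and 1, and by limma voom 1 and 1. Over all genes these shares were 1.22% and 2.15%, 6.54% and 8.11%, and 1.22% and 1.75%. The gene called as higher by edgeR was Tat, an amino acid transaminase (edgeR adjusted p = 0.0344). It was at 3005, 3409 and 5971 CPM in KO against 1058, 1165 and 1190 CPM in WT. Hnf4a was at 542 to 670 CPM in KO and 524 to 539 CPM in WT. Of the markers of other cells, the 8 endothelial genes summed to 92.7 to 153 CPM in KO against 190.2 to 257 CPM in WT, and the 8 macrophage, 8 stellate and 8 lymphocyte genes overlapped between the groups (105 to 233 against 144 to 198, 126 to 246 against 193 to 396, and 0.955 to 3.04 against 2.78 to 4.04 CPM). Bile duct genes overlapped too, at 31.0 to 86.0 against 53.0 to 85.6 CPM over 7 tested genes. The part of these shifts in the results below was not tested, and in whole tissue fewer cells of a type and less RNA per cell cannot be told apart.

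KO and WT were compared over all genes with edgeR's quasi-likelihood test, and a gene is called where its p-value, adjusted by Benjamini-Hochberg over 14539 genes, was under 0.05. Of the 10 members, 2 fell in KO, Cyp27a1 and Nr0b2. This compares with 1.22% of all tested genes called as lower. None rose by edgeR, with 0 members among those higher at an unadjusted p-value under 0.05 and 0 called as higher by DESeq2 or limma voom, against 2.15% of all genes called as higher. In 5 members every KO library lay below every WT library, a pattern seen in 15.5% of tested genes, and in 0 members every KO library lay above, against 16.9% of tested genes. The median log2 fold change of the 10 members was -0.83, beside 0.01 for all tested genes. The count of called members depended on single libraries: it was 7 without KO 1, 1 without WT 1, and 0 without any 1 of KO 2, KO 3, WT 2 or WT 3. The calls over all genes moved likewise, in either direction of change. They were 490 of 14539 genes with 6 libraries, 4473 of 14833 without KO 1 and 262 of 14935 without WT 1. Without KO 2, KO 3, WT 2 and WT 3 they were 86, 35, 6 and 20.

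**Figure D1:**
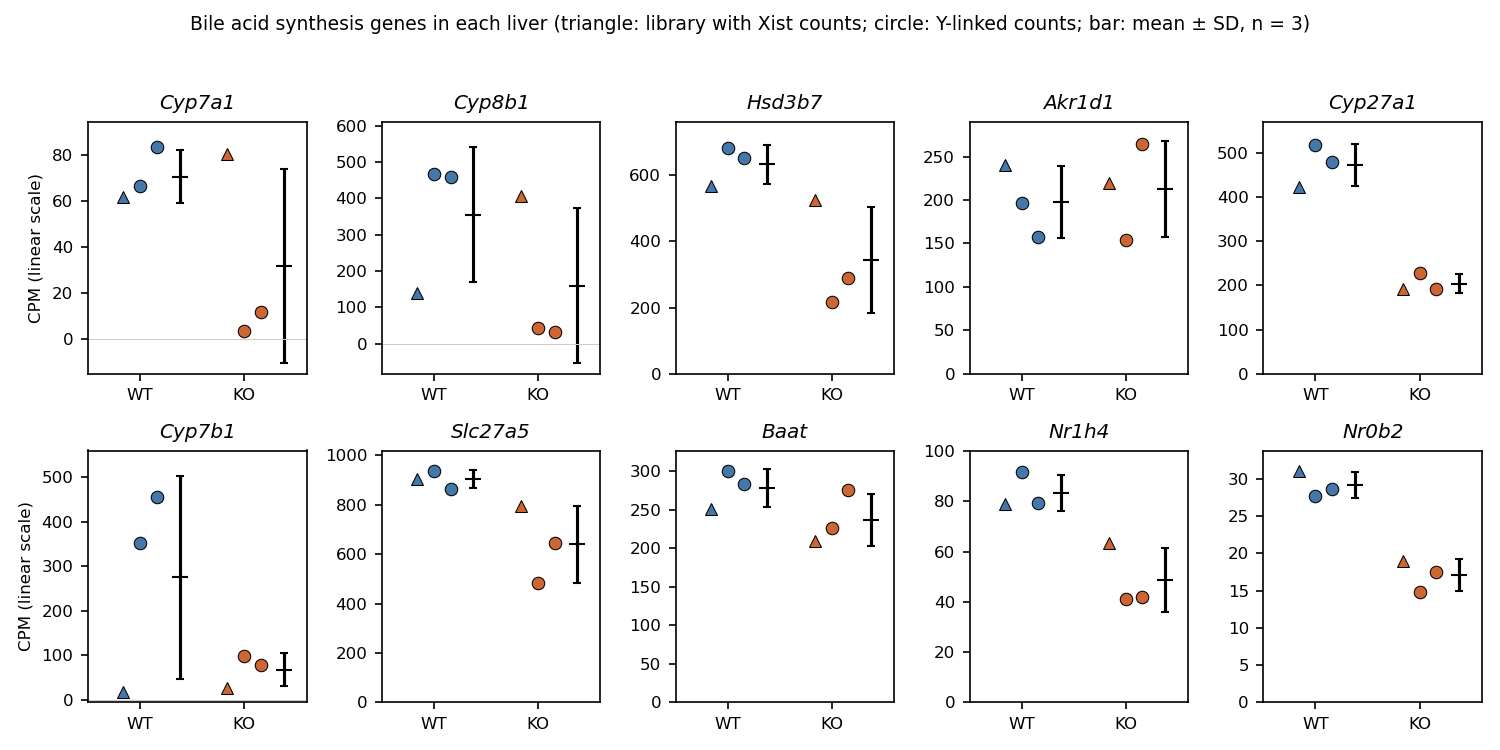
CPM (linear axis) of each member in each of the 6 libraries, WT in blue and KO in orange, triangles for the Xist pair, circles for the Y libraries, and bars for the mean ± SD (n = 3). Cyp27a1 and Nr0b2 separate the groups with little spread, whereas in Cyp7a1 and Cyp8b1 the library KO 1, at 80.5 and 406 CPM, lies far above KO 2 and KO 3.

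The classic route opens with Cyp7a1 (ENSMUSG00000028240.2, GRCm38 chromosome 4, 6265612 to 6275633, minus strand). Its level was 80.5 CPM in KO 1, 3.51 CPM in KO 2 and 11.7 CPM in KO 3. In WT it was 61.7, 66.7 and 83.6 CPM. KO 2 and KO 3 thus lay below every WT library while KO 1 lay within the WT range. The group means were 31.9 ± 42.3 CPM in KO and 70.7 ± 11.5 CPM in WT (SD, n = 3). The log2 fold change of -1.15 ± 0.974 (SE) did not pass the test (edgeR adjusted p = 0.487). Without KO 1 it was -3.23 with an edgeR adjusted p of 0.00832, and in the 4 Y libraries it was -3.32 with 0.00913. Without KO 2 it was -0.60 and without KO 3 -0.75, and leaving out any 1 library other than KO 1 gave edgeR adjusted p-values from 0.566 to 0.744. KO 2 had 195 counts of Cyp7a1 and KO 3 had 552, so the low values are not at the limit of detection.

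Cyp8b1 (ENSMUSG00000050445.4, chromosome 9, 121914356 to 121916305, minus strand) encodes the hydroxylase that directs the classic route towards cholic acid. Its level was 406, 42.2 and 30.9 CPM in KO 1 to 3 and 140, 466 and 459 CPM in WT 1 to 3. Within the Y libraries both KO values were below both WT values, by a log2 ratio of -3.68. In the Xist pair KO 1 was above WT 1, by a log2 ratio of 1.53 that rests on 1 library each. Over the 6 libraries the groups overlapped and the log2 fold change of -1.15 ± 1.01 (SE) had an edgeR adjusted p of 0.4998. Without KO 1 it was -3.29 (edgeR adjusted p = 0.0108). Without KO 2 it was -0.69 and without KO 3 -0.67, and leaving out any 1 library other than KO 1 gave edgeR adjusted p-values from 0.453 to 0.761.

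The stretch of 250 bases before the RefSeq start of Cyp8b1 is shown because the gene is held to be under the nuclear receptors HNF4A and LRH-1, the latter a target of SHP. It lies at chr9:121916306-121916555 on the minus strand of GRCm38.p6 and is written 5′ to 3′. The start regions of Cyp27a1 (chr1:74713285-74713534, plus strand) and Nr0b2 (chr4:133553126-133553375, plus strand), both called as lower, are set beside it. Capitals mark motif matches.
Cyp8b1: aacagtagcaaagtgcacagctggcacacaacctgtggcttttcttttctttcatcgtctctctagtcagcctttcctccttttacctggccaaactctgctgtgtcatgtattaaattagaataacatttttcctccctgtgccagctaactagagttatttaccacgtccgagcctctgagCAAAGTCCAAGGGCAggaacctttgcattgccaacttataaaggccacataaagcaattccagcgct
Cyp27a1: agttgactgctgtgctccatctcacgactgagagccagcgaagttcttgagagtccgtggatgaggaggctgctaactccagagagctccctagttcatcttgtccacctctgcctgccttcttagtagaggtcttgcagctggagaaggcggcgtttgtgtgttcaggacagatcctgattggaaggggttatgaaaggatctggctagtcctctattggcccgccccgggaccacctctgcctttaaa
Nr0b2: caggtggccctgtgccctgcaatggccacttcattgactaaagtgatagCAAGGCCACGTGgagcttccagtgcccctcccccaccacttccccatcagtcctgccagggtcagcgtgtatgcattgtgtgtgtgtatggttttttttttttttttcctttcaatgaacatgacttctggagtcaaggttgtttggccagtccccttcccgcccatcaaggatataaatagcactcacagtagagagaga

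RefSeq start regions were matched for 6 of the 10 members: Cyp8b1, Cyp27a1, Akr1d1, Hsd3b7, Nr1h4 and Nr0b2. Each was searched on both strands for 6 motifs. In Cyp8b1 the HNF4 core CAAAGTCCA stands 67 to 59 bases before the start and overlaps the LRH-1 site CAAGGNCA at 60 to 53 bases. In Nr0b2 the LRH-1 site stands at 201 to 194 bases and overlaps the E-box CACGTG at 195 to 190 bases. Among 32851 RefSeq start regions of the same length, 5.53% hold the LRH-1 site, 0.384% the HNF4 core and 6.02% the E-box. The other motifs were the CREB site TGACGTCA, the D-box TTATGTAA and the inverted repeat IR1 that FXR binds with RXR, in 1.55%, 0.819% and 0.0335% of regions. None of these 3 matched in the 6 members, and Cyp27a1 held 0 of the 6 motifs in this window. A match describes the letters and does not show that a factor binds.

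Both enzymes that reshape the sterol ring after the first hydroxylation were measured. Hsd3b7 (ENSMUSG00000042289.11, chromosome 7, 127800604 to 127803802, plus strand) encodes the dehydrogenase that acts next in either route. Its level was 523, 217 and 288 CPM in KO 1 to 3 and 566, 680 and 651 CPM in WT 1 to 3. All KO libraries were below all WT libraries, with KO 1 close to WT 1. The log2 fold change of -0.88 ± 0.332 (SE) did not pass in edgeR (adjusted p = 0.154), and without KO 1 it was -1.33 with an adjusted p of 0.00535. Leaving out any 1 of the other libraries gave -0.96 to -0.63, with edgeR adjusted p-values from 0.225 to 0.363. DESeq2 over the 6 libraries gave an adjusted p of 0.0398. Akr1d1 (ENSMUSG00000038641.12, chromosome 6, 37530173 to 37568815, plus strand) encodes the reductase that bends the ring junction. It was at 219, 154 and 264 CPM in KO and 240.5, 196 and 157 CPM in WT. The groups overlapped and the log2 fold change was 0.10 ± 0.251 (SE, edgeR adjusted p = 0.825).

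The alternative route opens with Cyp27a1 (ENSMUSG00000026170.6, chromosome 1, 74713574 to 74737892, plus strand), a mitochondrial sterol hydroxylase that also trims the side chain in the classic route. Its level was 193, 228 and 191 CPM in KO 1 to 3 and 421, 517 and 478 CPM in WT 1 to 3. The highest KO value was thus well under the lowest WT value. The mean was 204 ± 21.04 CPM in KO and 472 ± 48.02 CPM in WT (SD, n = 3). Cyp27a1 fell 2.32-fold, a log2 fold change of -1.21 ± 0.168 (SE) with an edgeR adjusted p of 0.0226. Its KO to WT ratio on the log2 scale was -1.25 for the Y libraries and -1.13 for the Xist pair, so the size was alike in both. The call was lost without KO 2 (edgeR adjusted p = 0.0526), KO 3 (0.119), WT 2 (0.147) or WT 3 (0.138), at log2 fold changes from -1.29 to -1.14.

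Cyp7b1 (ENSMUSG00000039519.6, chromosome 3, 18071950 to 18243338, minus strand) encodes the hydroxylase that takes the oxysterols made by CYP27A1, and it is known as a male-biased liver gene in mice. Its level was 27.1, 98.1 and 77.6 CPM in KO 1 to 3 and 18.2, 353 and 454 CPM in WT 1 to 3. The lowest value of each group was in its library with Xist counts. KO 2 and KO 3 lay between WT 1 and the other WT libraries. The log2 fold change over 6 libraries, -2.03 ± 1.02 (SE), did not pass (edgeR adjusted p = 0.255), while in the 4 Y libraries it was -2.21 (edgeR adjusted p = 0.00184). Leaving out single libraries gave -2.58 to -1.46, with edgeR adjusted p-values from 0.0786 to 0.524. A list of 12 other male-biased liver genes summed to 283 CPM in WT 1, to 23000 and 26350 CPM in WT 2 and WT 3, and to 769 to 1052 CPM in KO. The part of that shift in the Cyp7b1 values was not tested.

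Conjugation joins bile acids to taurine or glycine, after activation by the coenzyme A ligase encoded by Slc27a5 and transfer by the enzyme encoded by Baat. Slc27a5 (ENSMUSG00000030382.15, chromosome 7, 12988346 to 12998192, minus strand) was at 794, 483 and 644 CPM in KO and 905, 939 and 866 CPM in WT. The KO libraries were all below the WT libraries, but the log2 fold change of -0.50 ± 0.223 (SE) did not pass (edgeR adjusted p = 0.212). Without KO 1 it was -0.69 with an edgeR adjusted p of 0.0327, and without any 1 of the others -0.53 to -0.32, with adjusted p-values from 0.337 to 0.432. Baat (ENSMUSG00000039653.9, chromosome 4, 49489422 to 49506557, minus strand) was at 209.9, 226 and 275 CPM in KO and 251, 300.0 and 284 CPM in WT. These groups overlapped, with a log2 fold change of -0.23 ± 0.169 (SE, edgeR adjusted p = 0.417), and the log2 ratio was -0.23 in the Y libraries and -0.26 in the Xist pair.

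Of the feedback pair, Nr1h4 (ENSMUSG00000047638.15, chromosome 10, 89454234 to 89533585, minus strand), the bile acid receptor FXR, was at 63.4, 41.1 and 41.9 CPM in KO 1 to 3. In WT it was at 79.0, 91.8 and 79.2 CPM, above every KO library. The log2 fold change of -0.77 ± 0.197 (SE) had an edgeR adjusted p of 0.0755. It was -1.01 without KO 1 (edgeR adjusted p = 0.00339) and -0.80 with the Xist/Y state as a term (0.0467). DESeq2 gave 0.00872 and limma voom 0.0733. Leaving out any 1 library other than KO 1 gave -0.81 to -0.65, with edgeR adjusted p-values from 0.14 to 0.263.

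Nr0b2 (ENSMUSG00000037583.2, chromosome 4, 133553376 to 133556536, plus strand), the repressor SHP that FXR induces, was at 18.9, 14.8 and 17.5 CPM in KO and 31.1, 27.8 and 28.7 CPM in WT. No KO value came near the WT range, and the spread within each group was small, at 17.1 ± 2.12 against 29.2 ± 1.71 CPM (SD, n = 3). Nr0b2 fell 1.71-fold, a log2 fold change of -0.77 ± 0.131 (SE, edgeR adjusted p = 0.0347). The log2 ratio was -0.81 in the Y libraries and -0.71 in the Xist pair. Leaving out KO 2, KO 3, WT 1, WT 2 or WT 3 raised the edgeR adjusted p to 0.0865, 0.146, 0.083, 0.167 and 0.167, at log2 fold changes from -0.81 to -0.67. In KO 2 and KO 3 the repressor transcript Nr0b2 and its known targets Cyp7a1 and Cyp8b1 were thus all under their WT values. In KO 1 Nr0b2 was also under its WT values, but Cyp7a1 (80.5 CPM) and Cyp8b1 (406 CPM) lay within the WT range. A link between these levels was not tested.

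The members fell into kinds by how far the difference held in either library state, as an inspection made after the values were seen. In Cyp27a1, Nr0b2 and Baat the log2 ratios in the 2 states differed by little, as given above. In Cyp7a1, Cyp8b1 and Cyp7b1 they had opposite signs: -3.52, -3.68 and -2.20 in the Y libraries against 0.38, 1.53 and 0.57 in the Xist pair. Akr1d1 had opposite signs the other way round, at 0.20 in the Y libraries against -0.13 in the Xist pair. In Hsd3b7, Nr1h4 and Slc27a5 the ratio was negative in either state, at -1.41, -1.04 and -0.69 against -0.11, -0.32 and -0.19. Over all 10 members the median was -1.15 in the Y libraries and -0.16 in the Xist pair, where all tested genes had medians of 0.0 and -0.02. In an edgeR fit of the 4 Y libraries alone (2 against 2), 7 of 10 members were called as lower, where 16.1% of 14546 genes were.

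**Figure D2:**
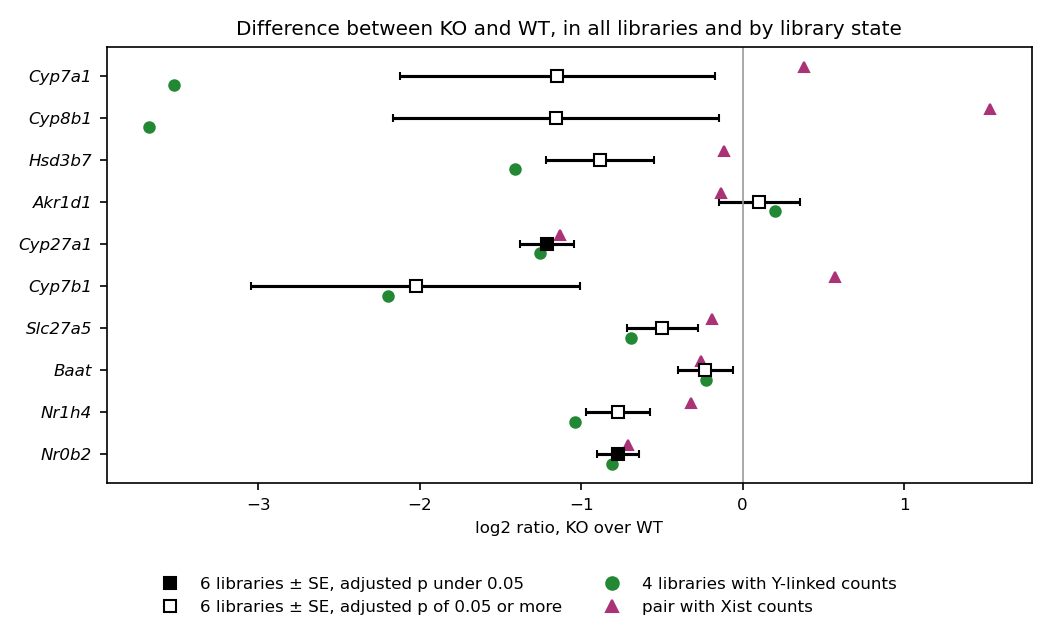
Log2 ratio of KO over WT for each member: squares give the fit over 6 libraries ± SE (filled where the adjusted p was under 0.05), green circles the 4 Y libraries and purple triangles the Xist pair. The circle and the triangle nearly coincide for Cyp27a1, Nr0b2 and Baat and lie on opposite sides of 0 for Cyp7a1, Cyp8b1, Cyp7b1 and Akr1d1.

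Whether the difference itself differed between the states was tested with an interaction term in edgeR over all genes. It passed for 2 of 10 members, where 2.90% of tested genes passed. For Cyp8b1 the difference between KO and WT was higher by 5.19 ± 0.354 (log2, SE) in the Xist pair than in the Y libraries (edgeR adjusted p = 0.00508). For Cyp7b1 it was higher by 2.77 ± 0.344 (edgeR adjusted p = 0.0213). Cyp7a1 had a value between these, 3.70 ± 0.883, that was less precise and did not pass (edgeR adjusted p = 0.104). The Xist state holds 1 library per group and adds nothing to the spread of a gene. The SE and p-value thus come from the spread between the 2 Y libraries of each group, which edgeR draws towards that of other genes. They assume that KO 1 and WT 1 vary alike. KO 1 and WT 1 decide these values, and their state cannot be told apart from any other property of those 2 mice. The log2 ratio of Stk11 itself was -1.573 in the Xist pair and -2.375 in the Y libraries.

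Levels of different genes were compared as TPM, the scale on which counts are divided by the total length of a gene's exons and set to the same sum in each library. In WT the order of means was Slc27a5 (819 ± 59.4 TPM), Hsd3b7 (503 ± 17.0), Cyp27a1 (478 ± 21.8), Cyp8b1 (394 ± 193), Baat (316 ± 9.78), Cyp7b1 (271 ± 224), Akr1d1 (152 ± 41.1), Nr1h4 (79.8 ± 5.41), Nr0b2 (57.1 ± 7.08) and Cyp7a1 (37.3 ± 4.97; all SD, n = 3). Each neighbouring pair from Hsd3b7 down to Akr1d1 differed by less than the sum of its SDs, and the other neighbouring pairs by more. On this scale Cyp7a1 was the lowest of the 10 in WT 2 and WT 3, and in WT 1 only Cyp7b1 was lower. That place depends on the length used: per mean transcript length Nr0b2 (35.0, 29.3 and 31.2 TPM in WT 1 to 3) was below Cyp7a1 (35.8, 36.2 and 46.8 TPM) in every WT library.

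Ratios between transcripts of the routes differed among the libraries. Because CYP27A1 also acts in the classic route, its ratios do not measure the balance between the routes. On the TPM scale Cyp27a1 was 13.1, 14.9 and 10.99 times Cyp7a1 in WT 1 to 3, and 4.60, 125 and 31.3 times in KO 1 to 3. KO 1 was below and KO 2 and KO 3 above the WT range, so the ratio moved both ways within the KO group. Cyp27a1 over Cyp8b1 was 2.69, 0.996 and 0.934 in WT and 0.426, 4.85 and 5.54 in KO. In KO 2 and KO 3 the alternative route's first enzyme thus stood several times above the transcript for the cholic acid branch, and in KO 1 below it. Cyp7b1 over Cyp7a1 was 0.569, 10.2 and 10.5 in WT 1 to 3 and 0.649, 53.8 and 12.8 in KO 1 to 3. These ratios come from single libraries and were not tested.

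**Figure D3:**
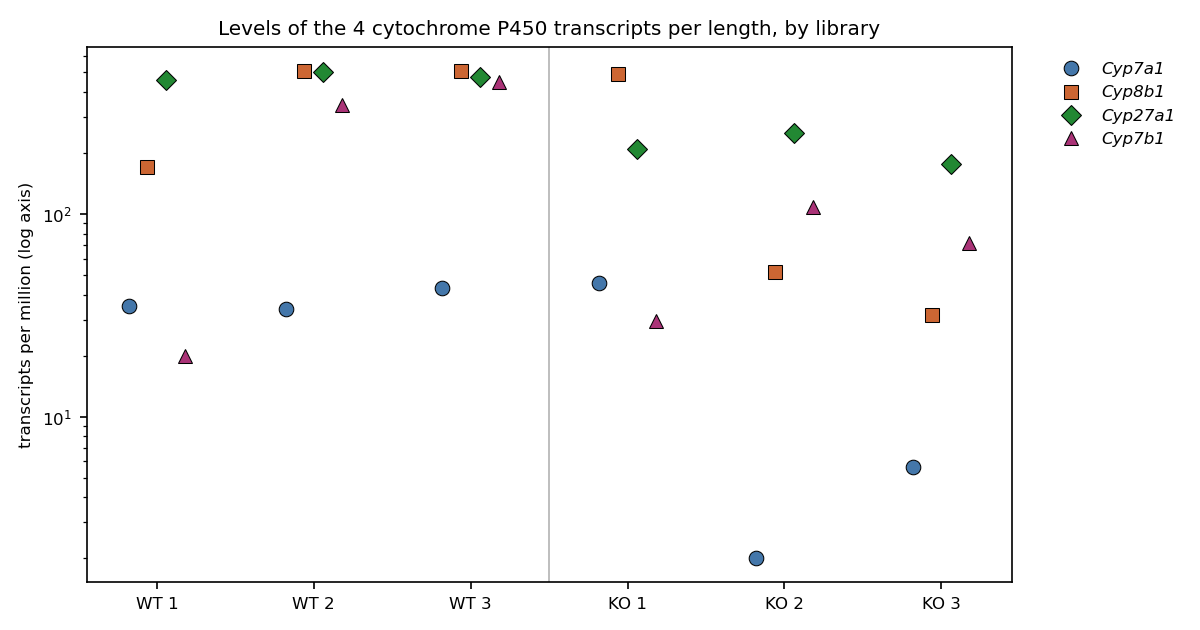
TPM (log axis) of the transcripts of the 4 cytochromes P450 in each library, WT to the left and KO to the right. Cyp7a1 stays between 33.8 and 45.6 TPM in the WT libraries and KO 1 and is at 2.00 and 5.61 TPM in KO 2 and KO 3, while Cyp27a1 is lower in all KO libraries.

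Further genes of the pathway were taken from 8 lists of 97 genes, 88 of them tested, of which 9 were called, 7 as higher and 2 as lower in KO. Over all genes edgeR called 1.22% as lower and 2.15% as higher and put 26.3% at an unadjusted p-value under 0.05. DESeq2 called 6.54% as lower and 8.11% as higher of the genes it gave an adjusted p, and limma voom 1.22% and 1.75%. The count of 9 was 43 without KO 1, 15 without WT 1, 1 without KO 2, and 0 without any 1 of KO 3, WT 2 or WT 3. The calls over all genes in these fits, which moved likewise, are given with the members. Of other synthesis enzymes, 15 of 16 were tested and edgeR called 0, with 6 at an unadjusted p-value under 0.05, 4 called as lower by DESeq2 and 0 by limma voom. Their median log2 fold change was -0.30. Closest to the threshold was Cyp2c70, which makes the muricholic acids of mice, at 333, 188 and 169 CPM in KO and 582, 457 and 483 CPM in WT (log2 fold change -1.14 ± 0.29, edgeR adjusted p = 0.0751). The 5 electron donors of cytochromes P450 had 0 calls by edgeR, 2 at an unadjusted p-value under 0.05, 1 called as higher by DESeq2 and 0 by limma voom. Por, the reductase that feeds the microsomal P450s, was at 251, 878 and 736 CPM in KO and 284, 191 and 161 CPM in WT (edgeR adjusted p = 0.104). KO 1 lay within the WT range for Por and the other KO libraries above it.

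Of 18 regulators, 2 rose and 0 fell by edgeR, against 2.15% and 1.22% of all genes (6 at an unadjusted p-value under 0.05, against 26.3%). DESeq2 called 3 as higher and 2 as lower, limma voom 2 and 0, and the median log2 fold change was 0.08. Ppargc1a, a coactivator that is induced in fasting, was at 24.7, 75.2 and 76.4 CPM in KO and 12.3, 5.75 and 4.28 CPM in WT, a log2 rise of 2.98 ± 0.565 (SE, edgeR adjusted p = 0.0446). Fgfr4, the hepatocyte receptor for the gut hormone FGF15 that represses Cyp7a1, was at 51.0, 55.5 and 61.9 CPM in KO against 37.8, 35.7 and 31.99 CPM in WT. Its rise was 0.67 ± 0.128 on the log2 scale (edgeR adjusted p = 0.0448). Neither group overlapped the other for these genes.

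Of 10 other genes that FXR induces, 9 were tested, with 1 called as higher and 0 as lower by edgeR (5 at an unadjusted p-value under 0.05, against 26.3% of all genes). DESeq2 called 1 as higher and 2 as lower, and limma voom 1 and 0. The median was -0.06. The called gene was Sdc1, a cell surface proteoglycan, at 686, 868 and 1079 CPM in KO against 254, 197 and 195 CPM in WT (log2 fold change 2.03 ± 0.235, edgeR adjusted p = 0.0149). Of 9 bile acid and sterol transporters 2 fell and 2 rose by edgeR, against 1.22% and 2.15% of all genes, with 7 at an unadjusted p-value under 0.05 and a median of -0.72. DESeq2 called 3 as lower and 2 as higher, and limma voom 2 and 2. Atp8b1, a phospholipid flippase of the canalicular membrane, fell by 0.80 ± 0.128 on the log2 scale (edgeR adjusted p = 0.0319), and Abcc3, an export pump of the sinusoidal side, was the other called as lower. Abcg8 and Abcg5, which form the sterol pump of the canaliculus, rose by 1.93 ± 0.318 and 2.30 ± 0.386 (edgeR adjusted p = 0.0329 and 0.0334). Their annotated ranges overlap and the use of strand was not stated, so reads in the shared part cannot be assigned with certainty.

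Cyp7a1 is known to cycle over the day, so clock genes were read alongside. Of 17 clock genes 16 were tested, 2 rose and 0 fell by edgeR, against 2.15% and 1.22% of all genes (8 at an unadjusted p-value under 0.05, against 26.3%). DESeq2 called 4 as higher and 1 as lower, limma voom 2 and 0, and the median was -0.04. Arntl, the gene of the clock activator BMAL1, was at 33.9, 47.4 and 40.8 CPM in KO and 15.1, 18.4 and 22.2 CPM in WT (edgeR adjusted p = 0.0334). Nfil3, a repressor at D-boxes, was at 64.9, 66.2 and 60.7 CPM in KO and 26.2, 30.0 and 40.8 CPM in WT (edgeR adjusted p = 0.0417). In both genes every KO library lay above every WT library. The part of these shifts in the Cyp7a1 values was not tested.

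Within WT the sums of the sex-biased lists followed the library state, and within KO they did not: the female-biased list summed to 1196, 2.64 and 3.44 CPM in WT 1 to 3 and to 1531, 1145 and 1398 CPM in KO 1 to 3, and the male-biased sums are given with Cyp7b1. None of 12 male-biased genes was called by edgeR, 11 were at an unadjusted p-value under 0.05, and 9 were called as lower by DESeq2 and 0 by limma voom. Their median log2 ratio was -8.22 in the Y libraries and 1.49 in the Xist pair, and the interaction term passed for all 12. Cyp2u1 came closest to a call, at 3.74, 2.503 and 2.695 CPM in KO and 5.36, 33.7 and 38.8 CPM in WT (edgeR adjusted p = 0.0581). Of 12 female-biased genes 6 were tested and 0 called by edgeR, with 1 at an unadjusted p-value under 0.05 and 1 called as higher by DESeq2 and by limma voom. DESeq2 gave no adjusted p for 9 of these genes. Cyp17a1 came closest, at 520, 924 and 1236 CPM in KO and 69.3, 2.24 and 2.59 CPM in WT (edgeR adjusted p = 0.0918). The female-biased genes not tested in edgeR did not pass the filter on low counts, and the sums cover the tested genes alone. That filter asks for enough counts in as many libraries as a group holds, so a gene present only in the Xist pair would not pass.

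**Figure D4:**
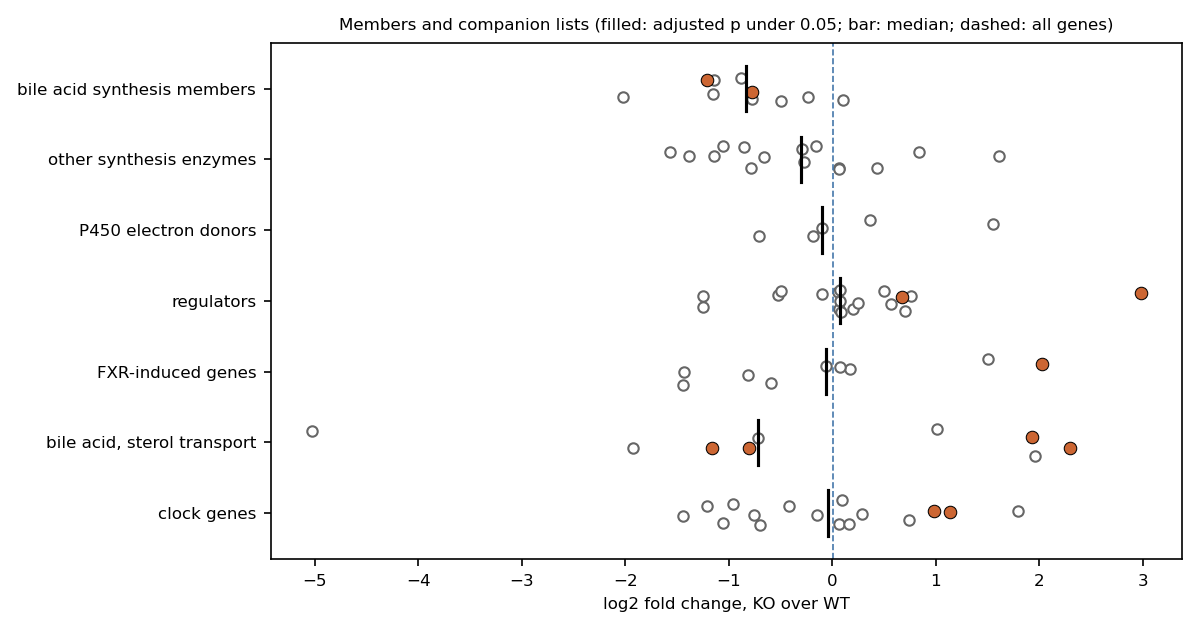
Log2 fold change of KO over WT for the members and 6 of the companion lists (the sex-biased ones are not drawn), 1 point per tested gene, filled where the edgeR adjusted p was under 0.05, with a bar at each list's median and a dashed line at the median of all tested genes. The members' median, -0.83, and that of the transporters, -0.72, lie furthest below the dashed line at 0.01 among the lists drawn.

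The genes whose profile over the 6 libraries was closest were found by the root mean square (RMS) difference of log2 CPM after each gene was centred on its mean, among 11972 genes with a mean of at least 1 CPM. For Cyp7a1 they were Cyp2d38-ps (RMS 0.198), Cyp2d37-ps (0.245) and Nrep (0.262), with KO 2 values of 0.234, 1.01 and 0.72 CPM against 7.12, 37.0 and 14.0 CPM in KO 1. The Cyp2d genes named here are pseudogenes, and RSEM may have split reads between them and other Cyp2d genes. For Cyp27a1 they were F11, a clotting factor (0.127), Pik3r3, a regulatory subunit of a lipid kinase (0.127), and Dhcr7, which makes cholesterol from its last precursor (0.131). These 3 were themselves called as lower, with edgeR adjusted p-values of 0.0147, 0.0429 and 0.00911. For Cyp7b1 the closest were less close: Cyp2d9 (0.48), a male-biased P450, Gm35696 (0.499) and Capn8 (0.529).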

How the data were processed

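RNA of 6 livers was sequenced after poly(A) capture, 1 library per mouse, and the 6 libraries were pooled for sequencing, per the labels' protocols. For 55450 genes the file deposited by the authors holds expected counts, which are RSEM's estimates of reads per gene. RSEM 1.3.1, STAR 2.7.0f, cutadapt 1.18 and bcl2fastq 2.17 are listed in the submitters' processing notes, as is the build mm9. All 55450 gene identifiers, with versions, were found in GENCODE M21 (GRCm38), from which positions and lengths were taken. The use of strand is not given in the sources used here. Of the 60 member values 0 were not whole, and the lowest was 195 counts.

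Expected counts were rounded. filterByExpr, TMM scaling and the quasi-likelihood test of edgeR 4.0.16 in R 4.3.3 gave the fold changes, with the group as the only term, p-values adjusted by Benjamini-Hochberg and a threshold of 0.05. The SE is the log2 fold change over the square root of F. CPM values use TMM-scaled library sizes. Log2 ratios within a library state use an offset of 0.1 CPM, and profiles a prior count of 2. DESeq2 1.42.0, limma 3.58.1 (voom), other scalings, no filter, the library state, a replicate block and leaving out each library were alternatives. The script was tested on simulated data. With 3 mice per group an exact permutation test of a single gene could not reach the threshold, so none was used.

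Groups and replicate numbers come from the titles. The numbers were not taken to pair the mice. Deviations from the group means correlated at 0.178, 0.0443 and 0.0679 between same-numbered libraries and from -0.167 to 0.203 between the others. These few libraries cannot exclude a pairing, and with the replicate block 0 members were called as lower. The members and all lists were chosen with earlier results of these data known. Named genes are the members, Stk11, from each list up to 3 called genes, taken by lowest adjusted p (or the gene closest to a call), and the 3 closest profiles for Cyp7a1, Cyp27a1 and Cyp7b1. Abcc3, Alb, Hnf4a and Tat were named after their values were seen. 1 marker gene is not reported here.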

Additional observations from a re-analysis of the deposited data

Results flagged for a closer look

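For Cyp8b1 and Cyp7b1 the KO to WT difference was not the same in the Xist pair as in the Y libraries by the interaction term. The interaction was 5.19 (log2) for Cyp8b1, with WT 1 at 140 CPM and KO 1 at 406 CPM, and 2.77 for Cyp7b1, with 18.2 and 27.1 CPM. The edgeR adjusted p-values were 0.00508 and 0.0213. Each rests on 1 library per group in the Xist state. The spread behind the test thus comes from the Y libraries, 2 per group, and is drawn by edgeR towards that of other genes. The state cannot be told apart from other properties of KO 1 and WT 1. The cause was not tested.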

How the results depend on the processing

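The 490 calls over all genes became 771 without a filter, 2252 in DESeq2, 105 with the replicate block, 1504 with the library state as a term, 4847 in the Y libraries, and 6 to 4473 when a library was left out. Of the genes called, 74.4% were higher in KO with library size alone, in place of 63.9%. The 2 members called as lower became 4 in DESeq2, 0 with the replicate block, 7 in the Y libraries and 0 to 7 when a library was left out. With the replicate block the log2 fold changes of Cyp27a1 and Nr0b2 were -1.21 and -0.78 (edgeR adjusted p = 0.0663 and 0.0682). Under alternatives chosen after seeing the data, the 9 companion calls became 14 without a filter, 33 in DESeq2, 0 with the replicate block, 18 with the state as a term, 60 in the Y libraries and 0 to 43 when a library was left out. Also by such an alternative, without a filter 4 members in place of 2 passed the interaction test. Akr1d1, at 0.10, ran from -0.08 to 0.29 when a library was left out, and was negative without KO 3 (-0.08) and WT 3 (-0.04). Of the single-member fold changes under an alternative, these 2 turned sign, 13 gained a call, 11 lost a call and 114 kept sign and side of the threshold. Among the 114 is Cyp8b1 in DESeq2, which had no adjusted p there and is counted as not called. With mean transcript length in place of exon length, Cyp8b1 in WT was 222 in place of 394 TPM, Cyp7b1 154 in place of 271, Nr1h4 51.6 in place of 79.8 and Nr0b2 31.8 in place of 57.1, and Cyp7a1 39.6 in place of 37.3. Nr0b2 in place of Cyp7a1 then had the lowest WT mean, so the order of levels is uncertain. The cause of these shifts was not tested. Replicates are separate mice, and 3 per group limit the precision; depth does not, since no member had under 195 counts.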
